A study of Mus musculus with 4 samples.

Results

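Endothelial barcodes carrying both Vwf and Nr2f2 transcripts were examined in single-cell RNA profiles of mouse heart. Each barcode stands for the contents of 1 droplet, normally 1 cell. A barcode entered with at least 500 UMIs (unique molecular identifiers, counts of captured RNA molecules), at least 200 genes and at most 20% of its UMIs from mitochondrial genes. It needed at least 1 UMI over Cdh5 and Pecam1, at least 1 UMI of Vwf and at least 1 of Nr2f2. At most 1 of the 6 arterial genes Gja5, Gja4, Sema3g, Bmx, Hey1 and Stmn2 could be detected. Prox1 (lymphatic), Npr3 (endocardial) and Kcnj8 (pericyte) had to be at 0. Col1a2, Dcn and Col3a1 together, and C1qa, C1qb and C1qc together, each had to stay under 20 per 10000 UMIs. The rule found 105 of the 41542 barcodes that passed the quality limits, out of 43074 deposited barcodes.

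The hearts came from 4 groups with 1 library each. These were a control, a sham group and mice with sepsis from cecal ligation and puncture (CLP). In CLP the cecum is tied off and pierced. The last group was CLP mice given low-level stimulation of the tragus, here CLP plus stimulation. The last library's treatment label names the stimulation alone, and its title adds sepsis. The sources used here do not give strain, sex or age, how many animals went into each library, or when hearts were taken. With 1 library in each group there is no spread between animals, and no comparison below carries a p-value.

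Veins and venules return blood from the capillaries, and venules are where leukocytes leave the blood. Nr2f2 (also called COUP-TFII) is a transcription factor that holds the venous fate of endothelium and restrains Notch signalling. Vwf, von Willebrand factor, tethers platelets and is stored with P-selectin (Selp) in granules called Weibel-Palade bodies. Vwf is also made by endocardium and by larger arteries. P-selectin and E-selectin (Sele) let leukocytes roll, and Icam1 and Vcam1 hold them firmly by binding their integrins.

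The 105 barcodes comprised 32 from control, 31 from sham, 37 from CLP and 5 from CLP plus stimulation. Together they held 186676, 418629, 420479 and 42367 UMIs in that order. Their median depth was 3325.5, 12681, 8947 and 6867 UMIs. Capillary barcodes, defined by at least 3 of 6 capillary genes and no Vwf, had medians of 2141, 3352.5, 3323.5 and 3561 UMIs. The selected barcodes were thus deeper than capillary ones in every library, and the control was the shallowest library. Between 19 and 60 barcode sequences were shared by each of the 6 pairs of libraries. Of the 105 barcodes, 8 were among the highest doublet scores, 2 held Ptprc UMIs, 2 held at least 20 smooth muscle UMIs per 10000 and 2 held as many neutrophil UMIs. Levels are UMIs summed over the barcodes of a class in a library, per 1000000 summed UMIs (CPM). Intervals are exact 95% intervals and cover counting error only.

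The promoters of the adhesion genes are shown because the results turn on these genes, whose transcription in endothelium is known to be switched on by NF-kappaB. Each is the 250 bases before the RefSeq start on GRCm38.p6. Icam1 lies at chr9:21015690-21015939, Sele at chr1:164047984-164048233 and Selp at chr1:164115014-164115263, all on the plus strand. Capitals mark the only match to the motifs searched; no entry was used for Vcam1.
Icam1: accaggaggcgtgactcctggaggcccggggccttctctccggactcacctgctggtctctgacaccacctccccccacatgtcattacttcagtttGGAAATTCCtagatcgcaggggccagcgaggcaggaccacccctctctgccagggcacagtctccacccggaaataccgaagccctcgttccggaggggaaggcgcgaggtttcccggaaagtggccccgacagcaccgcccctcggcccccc
Sele: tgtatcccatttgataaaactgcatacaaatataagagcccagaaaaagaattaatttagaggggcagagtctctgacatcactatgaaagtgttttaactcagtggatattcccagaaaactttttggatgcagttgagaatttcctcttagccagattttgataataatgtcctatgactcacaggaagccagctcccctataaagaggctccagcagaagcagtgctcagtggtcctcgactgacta
Selp: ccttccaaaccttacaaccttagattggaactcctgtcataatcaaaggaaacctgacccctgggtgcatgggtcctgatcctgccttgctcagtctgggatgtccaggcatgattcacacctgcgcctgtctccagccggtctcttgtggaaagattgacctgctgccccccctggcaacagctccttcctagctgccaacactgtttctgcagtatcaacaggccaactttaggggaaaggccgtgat
The 10-letter kappaB consensus with the fourth and the fifth letter left free, searched on both strands, was present in none of these 3 windows and in 464 of 32851 RefSeq promoter windows of this length (1.41%). A second motif of 9 letters, GGAAATTCC (GGAATTTCC on the other strand), was added after the windows had been read. It occurred in the Icam1 window from 153 to 145 bases before the start, and in 94 of the 32851 windows (0.286%). Because it was chosen with the windows known, its presence there and this share are description only. Other kappaB-like letters were not searched, so a window without capitals is not shown to lack such a site. A match describes the letters in the window and does not show a bound site.

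The genes themselves, on GRCm38 in GENCODE vM21, are Selp on chromosome 1 (164115264 to 164150026, plus strand), Sele on chromosome 1 (164048234 to 164057677, plus strand), Icam1 on chromosome 9 (21015985 to 21028817, plus strand) and Vcam1 on chromosome 3 (116109949 to 116129688, minus strand). Vwf spans chromosome 6 from 125546774 to 125686679 on the plus strand. Nr2f2 spans chromosome 7 from 70351944 to 70366735 on the minus strand.

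The label of venous cells was checked against 19 vein markers that the rule had not used. Their summed level in the selected barcodes was 3016, 2456, 3560 and 2172 CPM in the 4 libraries, in the order control, sham, CLP, CLP plus stimulation. In capillary barcodes it was 1744, 1852, 1539 and 942 CPM. Endocardial barcodes held more of these markers, at 8565, 8099, 5111 and 10154 CPM, and arterial barcodes held 1828, 1501, 1743 and 2416 CPM. The selected barcodes were thus above capillary ones and below endocardial ones in each library, and below arterial ones in CLP plus stimulation. They were not free of capillary genes. The 12 capillary markers summed to 44794, 35800, 37093 and 26436 CPM in them, against 42106, 32866, 43524 and 21139 CPM in capillary barcodes. Fabp4, the fatty acid binding protein that fills heart capillary cells, was detected in 30 of 32, 31 of 31, 37 of 37 and 5 of 5 selected barcodes. Its 6984, 12146, 10278 and 710 UMIs made up most of their sums. Among markers that did not define capillary barcodes, Kdr, Tcf15 and Aqp7 were lower than in capillary barcodes in control, sham and CLP. The log2 ratios were -0.62, -0.72 and -0.28 for Kdr and -1.38, -0.78 and -1.41 for Aqp7. Meox2 was above 0 in each, and Lpl and Slc28a2 varied in sign. Car4, which helped define capillary barcodes, was at -1.82, -1.13 and -0.86. Ackr1, the chemokine receptor that marks venules in many organs, was at 0 in control and in CLP plus stimulation; sham had 9 UMIs in 1 barcode and CLP 7 UMIs in 2 barcodes. Plvap, a diaphragm protein of venules and fenestrated vessels, had 2, 15, 25 and 0 UMIs. The cells are therefore called Vwf+ Nr2f2+ barcodes here and not venous cells.

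The depth of Vwf separated them further. Vwf was at exactly 1 UMI in 69 of the 105, at 2 or more in 36 and at 4 or more in 19, with maxima of 19, 34, 26 and 1 UMIs in the 4 libraries. Nr2f2 was at exactly 1 UMI in 57. These ranges were chosen after the values had been seen. Selp was detected in 7 of 69 barcodes with 1 Vwf UMI, in 2 of 17 with 2 or 3, and in 9 of 19 with 4 or more. The summed Selp level was 22.9, 14 and 448 CPM in those 3 ranges. Vcam1 was at 271, 294 and 1036 CPM, and Lrg1, a secreted glycoprotein of venules, at 133, 93.2 and 755 CPM. The vein marker Aplnr was at 244, 336 and 76.8 CPM, and was lower with 4 or more Vwf UMIs than with 1 in control (206 against 386 CPM), sham (145 against 370) and CLP (20.5 against 65.2). Selp, Vcam1 and Lrg1 were thus highest, and Aplnr lowest, in the barcodes with the most Vwf. These pooled values mix the libraries unevenly, since 10 of the 19 barcodes with 4 or more Vwf UMIs came from CLP. The pooled Fabp4 medians were 300, 213 and 182 UMIs per 10000, but in control the median was 345 with 1 Vwf UMI, 323 with 2 or 3 and 512 with 4 or more. The median depth was 8133, 12681 and 6054 UMIs in the 3 ranges, so the barcodes richest in Vwf were not the deepest.

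**Figure D1:**
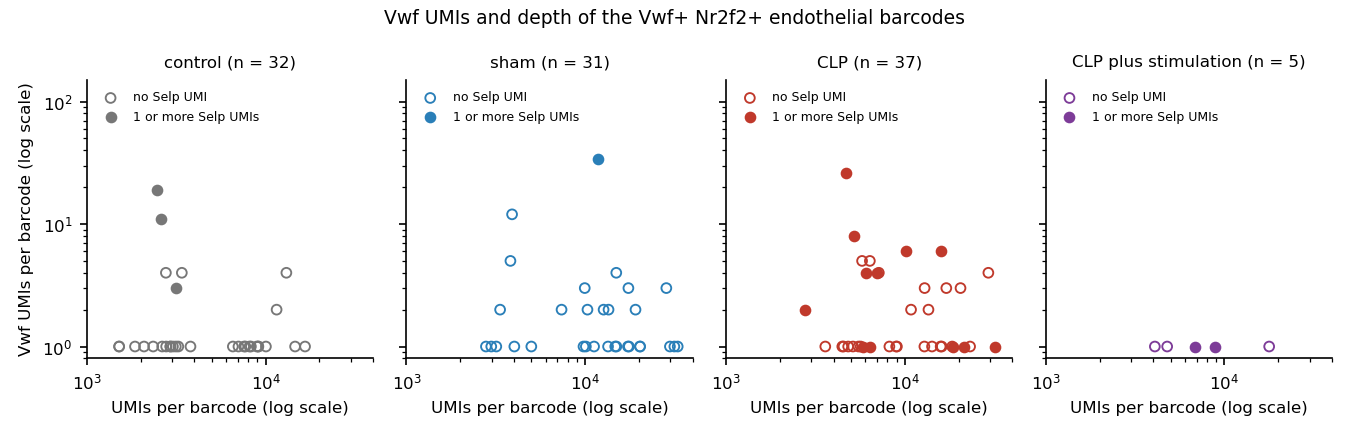
Vwf UMIs (log scale) against all UMIs (log scale) of each selected barcode, 1 panel for each library; filled points had at least 1 Selp UMI. Most points lie on 1 Vwf UMI, and the highest Vwf counts, 19 in control, 34 in sham and 26 in CLP, belong to barcodes with Selp.

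The 18 barcodes with Selp had a median of 3.5 Vwf UMIs and 162 Fabp4 UMIs per 10000. In the 87 without Selp these medians were 1 Vwf UMI and 300 Fabp4 UMIs per 10000. Sele was seen in 7 of the 18 and 4 of the 87, Plvap in 8 and 11, and Ackr1 in 3 and 0. Fabp4 fell under 20 per 10000 in 5 barcodes, 2 from control, 1 from sham and 2 from CLP. One of these, from CLP, held 55 Vcam1 UMIs among 7012, the highest count of Vcam1 in any selected barcode. It also held 572 neutrophil UMIs per 10000 and 6 of the 7 CLP UMIs of the endocardial marker Cytl1. Another from CLP held 6 of that library's 7 Ackr1 UMIs. Of the 5, 1 from control held all 5 Cytl1 UMIs of control, and the 1 from sham all 2 of sham. The sham barcode richest in Vwf, with 34 UMIs, held all 31 Selp UMIs of that library, all 9 Ackr1 UMIs and 4 of its 6 Sele UMIs.

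At the edge of the rule, barcodes that met every other limit but had no Vwf UMI numbered 197, 111, 196 and 53 in the 4 libraries. Vcam1 in them was at 31.5, 38.7, 310 and 106 CPM. In barcodes with exactly 1 Vwf UMI it was at 88.0, 122, 551 and 212 CPM. With 2 or more Vwf UMIs it was at 205, 313 and 959 CPM in control, sham and CLP, and CLP plus stimulation had no such barcode. Split further, Vcam1 in sham was at 335 CPM with 2 or 3 Vwf UMIs and 233 with 4 or more, and in CLP at 245 and 1527 CPM. By these summed levels, Vcam1 was higher with 1 Vwf UMI than with none in each library, but did not rise at every further step. In CLP it was lower with 2 or 3 Vwf UMIs than with none. The levels carry no intervals and rest on few barcodes. CLP plus stimulation had 9 Vcam1 UMIs with 1 Vwf UMI, and CLP had 6 barcodes with 2 or 3. Of the CLP barcodes with 4 or more, 2 held 55 and 39 Vcam1 UMIs.

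Of 5801 genes compared between the selected and the capillary barcodes, 46 were higher by at least 2-fold, and 4 lower, with intervals off 1, in each of the 3 libraries that had at least 31 selected barcodes. This is a description with no test, since the rule chose the cells by their own transcripts. Selp was at 69.6, 74.1, 90.4 and 165 CPM in the selected barcodes and at 0.409, 0.686, 6.24 and 11.3 CPM in capillary ones. Other genes higher in all 3 were Prss23 at 69.6, 71.7 and 59.5 CPM against 5.9, 5.5 and 5.0, and Ptgs1, a prostaglandin synthase, at 102, 95.6 and 145 CPM against 25.9, 24.7 and 45.6. Vegfc, a lymphangiogenic growth factor that is also on the list of arterial markers, was at 96.4, 90.8 and 42.8 CPM against 19.8, 14.6 and 9.8. Pthlh, Lbp, Col13a1, Hs3st1, Cysltr1, Igfbp5, Bmp4, Eln, Entpd1, Fmo2, Vcam1 and Icam1 were also among the 46. Pthlh rested on 4, 13 and 6 UMIs in control, sham and CLP, with 75.0%, 76.9% and 66.7% of them in 1 barcode. Eln was at 193, 90.8 and 157 CPM, beside 310, 260 and 98.8 CPM in barcodes without Cdh5 and Pecam1. In control, Lbp and Igfbp5 were also higher in those non-endothelial barcodes than in the selected ones. The 4 lower genes were Btnl9, Kctd12b, Map4k3 and Myo10. The selected barcodes were the deeper ones. Among barcodes of both classes with at least 5000 UMIs, 36 of the 46 genes were still at least 2-fold higher in control, 46 in sham and 40 in CLP, and 31 in all 3. In control that left 14 selected barcodes with no UMI of Selp, so the Selp difference there rests on barcodes under 5000 UMIs, and Pthlh stood at a log2 ratio of 0.0. Btnl9, a capillary gene of the butyrophilin family, was at 80.4, 62.1 and 42.8 CPM against 275, 264 and 172 CPM.

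Endocardium shares several of these genes. Barcodes with Npr3 and at most 1 arterial gene numbered 57, 22, 31 and 8. Their Vwf level was 699, 633, 394 and 285 CPM, against 386, 225, 257 and 118 CPM in the Vwf+ Nr2f2+ barcodes. Their Vcam1 level was 312, 368, 578 and 617 CPM. Endocardial markers outside the rule summed to 257, 213, 178 and 165 CPM in the Vwf+ Nr2f2+ barcodes and to 99.9, 126, 99.2 and 89.4 CPM in capillary ones. The part of endocardial cells whose Npr3 was missed was not tested.

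The share of these barcodes among endothelial barcodes with Cdh5 was counted next. It was 30 of 3218 (0.932%, exact Clopper-Pearson interval 0.630 to 1.33) in control and 31 of 1661 (1.87%, 1.27 to 2.64) in sham. In CLP it was 34 of 2017 (1.69%, 1.17 to 2.35) and in CLP plus stimulation 5 of 520 (0.962%, 0.313 to 2.23). On the log2 scale, sham stood 1.00 over control (0.23 to 1.78), CLP -0.15 over sham (-0.89 to 0.60) and CLP plus stimulation -0.81 over CLP (-2.52 to 0.55). Detection of 1 Vwf and 1 Nr2f2 UMI depends on depth. With every barcode thinned to 1000 UMIs the shares were 7 of 2077, 2 of 1182, 2 of 1280 and 0 of 349, and sham then stood -0.99 over control (-4.30 to 1.4). The order of the shares was not detectable at this depth. Without the Vwf requirement the shares were 6.40%, 7.95%, 10.4% and 9.42%.

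In CLP over sham, 22 of 34 interferon response genes, 10 of 15 acute phase genes and cytokine receptors, and the adhesion genes Vcam1, Icam1, Sele and B3gnt3 were called higher in the Vwf+ Nr2f2+ barcodes. The acute phase genes included Saa3 and Lcn2, whose CLP levels were higher still in lymphocyte barcodes. The apelin receptor Aplnr, 5 of 8 circadian clock genes and the caveola genes Cavin1 and Cavin2 were called lower. A gene was called where its level differed by at least 2-fold and its exact interval excluded a ratio of 1, among genes with at least 20 UMIs over both libraries. Of 5420 such genes, 329 (6.07%) were called higher and 280 (5.17%) lower, and the median log2 ratio was -0.02. With the barcode that held the most UMIs of each gene left out in each library, 338 were called higher and 273 lower, of which 300 and 237 were calls of the full set.

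Of 12 measured leukocyte adhesion genes outside the rule, 4 were called higher, 2 lower and 6 were not called, with a median log2 ratio of 0.39. Vcam1 was detected in 12 of 32 control, 22 of 31 sham, 31 of 37 CLP and 3 of 5 CLP plus stimulation barcodes. Its summed level was 112 CPM (69.6 to 172) in control, 193 (154 to 240) in sham, 721 (642 to 806) in CLP and 212 (97.1 to 403) in CLP plus stimulation. CLP was the highest and its interval lay apart from those of the other 3 libraries. Its log2 ratio in CLP over sham was 1.89 (1.54 to 2.27). Single barcodes overlapped: Vcam1 ranged from 0 to 19 UMIs with a median of 1 in sham, and from 0 to 55 with a median of 5 in CLP. Capillary barcodes had 18.7 CPM in sham and 196 CPM in CLP. Lymphocyte barcodes, which should lack Vcam1, had between 1.28 and 4.50 CPM in the 4 libraries.

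Icam1 was detected in 20 of 32, 26 of 31, 35 of 37 and 5 of 5 barcodes. Its level was 359 CPM (278 to 456) in control, 432 (372 to 500) in sham, 1203 (1101 to 1313) in CLP and 1109 (815 to 1475) in CLP plus stimulation. The libraries with CLP thus stood apart from the other libraries and overlapped each other. The log2 ratio of Icam1 in CLP over sham was 1.47 (1.23 to 1.73), and in capillary barcodes it was 2.39. Lymphocyte barcodes held 69.9 CPM of Icam1 in sham and 114 in CLP.

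Sele had 1, 6, 18 and 0 UMIs, in 1, 2, 8 and 0 barcodes. Its level was 5.36 CPM (0.136 to 29.8), 14.3 (5.26 to 31.2), 42.8 (25.4 to 67.7) and 0, where 3 counts would be 70.8 CPM. It was called higher in CLP over sham at a log2 ratio of 1.5 (0.18 to 3.20), and the intervals of the single libraries overlapped. B3gnt3, a glycosyltransferase that helps build selectin ligands, was called higher at 1.36 (0.52 to 2.32). Selp was not called, at 0.28 (-0.44 to 1.02). The count of Selp rested on few barcodes: 13 UMIs in 3 barcodes of control, 31 in 1 of sham, 38 in 12 of CLP and 7 in 2 of CLP plus stimulation. Without the top barcode sham had none, and Selp was then called higher. In capillary barcodes the log2 ratio of Selp was 3.05. The 2 genes called lower were Podxl at -1.24 (-1.61 to -0.88), a sialomucin of the luminal surface, and the junction adhesion molecule Jam3 at -1.64 (-2.96 to -0.58). Jam2, Cd34, Esam, Icam2 and F11r lay between -0.32 and 0.59 and were not called. Pecam1, which the rule used, was at 0.50.

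**Figure D2:**
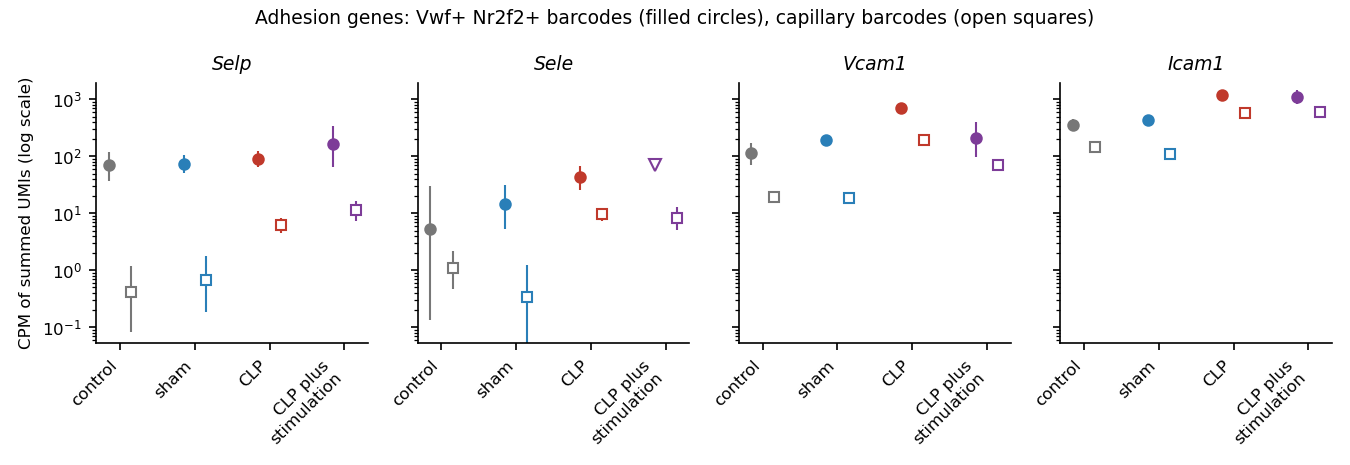
Summed level (CPM, log scale) of Selp, Sele, Vcam1 and Icam1 by library in Vwf+ Nr2f2+ barcodes (filled circles) and capillary barcodes (open squares), with exact 95% counting intervals; the open triangle marks the level of 3 counts for a count of 0. Vcam1 is highest in CLP at 721 CPM, and filled circles lie above open squares in every library that had counts.

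Of 18 measured vein markers outside the rule, 5 were called higher and 1 lower, with a median of 0.49. Lrg1 was detected in 25 of 37 CLP barcodes against 7 of 31 in sham, and its level was 395 against 43.0 CPM (log2 ratio 3.16, 2.49 to 3.99). Lymphocyte barcodes of CLP held 288 CPM of Lrg1, and the part of free RNA in this level was not tested. Mgp, matrix Gla protein, an inhibitor of calcification and of BMP ligands, was at 273, 43.0, 426 and 260 CPM in the 4 libraries. Sham was the low library for Mgp, and its log2 ratio in CLP over sham was 3.27 (2.61 to 4.10), against 0.66 in capillary barcodes; it was not called without the Vwf requirement (0.84). Tmem176b at 1.70 and Tmem176a at 1.29, a pair of neighbouring membrane channel genes, were also called higher, beside Vcam1. Aplnr, the apelin receptor, was at 354, 389, 59.5 and 0 CPM. It was found in 19 of 32, 26 of 31, 14 of 37 and 0 of 5 barcodes, and was called lower in CLP over sham at -2.69 (-3.38 to -2.10). In capillary barcodes its ratio was -3.20.

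Among the remaining vein markers, Cpe at -0.83, Nrp2 at -0.67, Emcn at -0.42 and Ephb4 at -0.19 were below 0 and not called. Ctsh at 0.21, Il1r1 at 0.38, Ptgs1 at 0.60, Bgn at 0.71, Plvap at 0.71 and Flt4 at 1.10 were above 0 and not called. Ephb4 is the receptor that marks veins in development, and Emcn is a sialomucin of veins and capillaries. Vwf at 0.19 and Nr2f2 at 0.01 chose the barcodes and are given as values only.

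Of 13 haemostasis genes other than Vwf, 6 were called higher and 1 lower, with a median of 0.79. Cd59a, which blocks the complement pore, was at 88.4 CPM in sham and 312 in CLP (log2 ratio 1.80, 1.28 to 2.39). Entpd1, an ectoenzyme that removes ATP and ADP and so restrains platelets, was at 88.4 and 285 CPM (1.68, 1.15 to 2.26). Plaur, the urokinase receptor, had 1.38 (0.33 to 2.64) and Cd63, a membrane protein of Weibel-Palade bodies, 1.18 (0.32 to 2.15). The calls of Thbs1 at 2.80 and Rab27a at 1.37 were lost without the top barcode, where Thbs1 was at -0.01 and Rab27a at 1.25. Tfpi, the inhibitor of tissue factor, was called lower at -1.43 (-3.14 to -0.10). Thbd, thrombomodulin, was at 225 and 124 CPM, a log2 ratio of -0.85 (-1.38 to -0.36), and was not called. Plat, Anxa2, Mmrn2 and Pros1 were not called, at -0.74, -0.42, 0.09 and 0.79.

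Of 13 chemokine and growth factor genes, 3 were called higher and 1 lower, with a median of 0.61 (1.25 in capillary barcodes). Csf1, the growth factor of macrophages, was detected in 9 of 32, 12 of 31, 31 of 37 and 4 of 5 barcodes. Its level was 58.9 (29.4 to 105), 71.7 (48.4 to 102), 385 (328 to 449) and 165 CPM (66.4 to 340), and the log2 ratio of CLP over sham was 2.41 (1.86 to 3.04). Lymphocyte barcodes of CLP held 25.3 CPM. Cx3cl1, a membrane-bound chemokine, was called higher at 2.48 (1.32 to 4.12). Ccl2, the monocyte chemokine, was called higher at 2.52 (1.80 to 3.39), from 17 UMIs in 7 sham barcodes and 100 in 15 CLP barcodes; lymphocytes of CLP held 165 CPM beside 238 in the selected barcodes. Ccl7 was called lower at -2.38, a call lost without the top barcode (-0.01).

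Of 15 acute phase genes and cytokine receptors, 10 were called higher and none lower, with a median of 2.53. The cytokine receptor subunits Osmr at 1.56 (0.83 to 2.39) and Il4ra at 1.30 (0.58 to 2.10) were called higher. Serpina3g, a protease inhibitor, was at 9.56 CPM in sham and 99.9 in CLP (3.23, 1.92 to 5.33). The sham barcodes had no UMI of Lcn2, Saa3, Serpina3n or Serpina3f. Against a floor of 3 counts in sham, CLP was 266-fold higher for Lcn2, 93.6-fold for Saa3, 12.6-fold for Serpina3n and 7.63-fold for Serpina3f. The exact interval began at a log2 ratio of 7.75 for Lcn2 and 2.52 for Serpina3f. Lcn2, an iron-siderophore binding protein, and Saa3, a serum amyloid, were however widespread in CLP. Saa3 was in all 37 selected barcodes, with 3 to 14 UMIs each, but also in 97.6% of lymphocyte barcodes. Its level was 671 CPM in the selected and 2117 CPM in the lymphocyte barcodes. Lcn2 was in 94.6% of the selected and 45.2% of the lymphocyte barcodes at median depths of 8947 and 4073.5 UMIs, and at 1905 against 3019 CPM. The part of free RNA in the levels of Saa3 and Lcn2 was not tested.

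**Figure D3:**
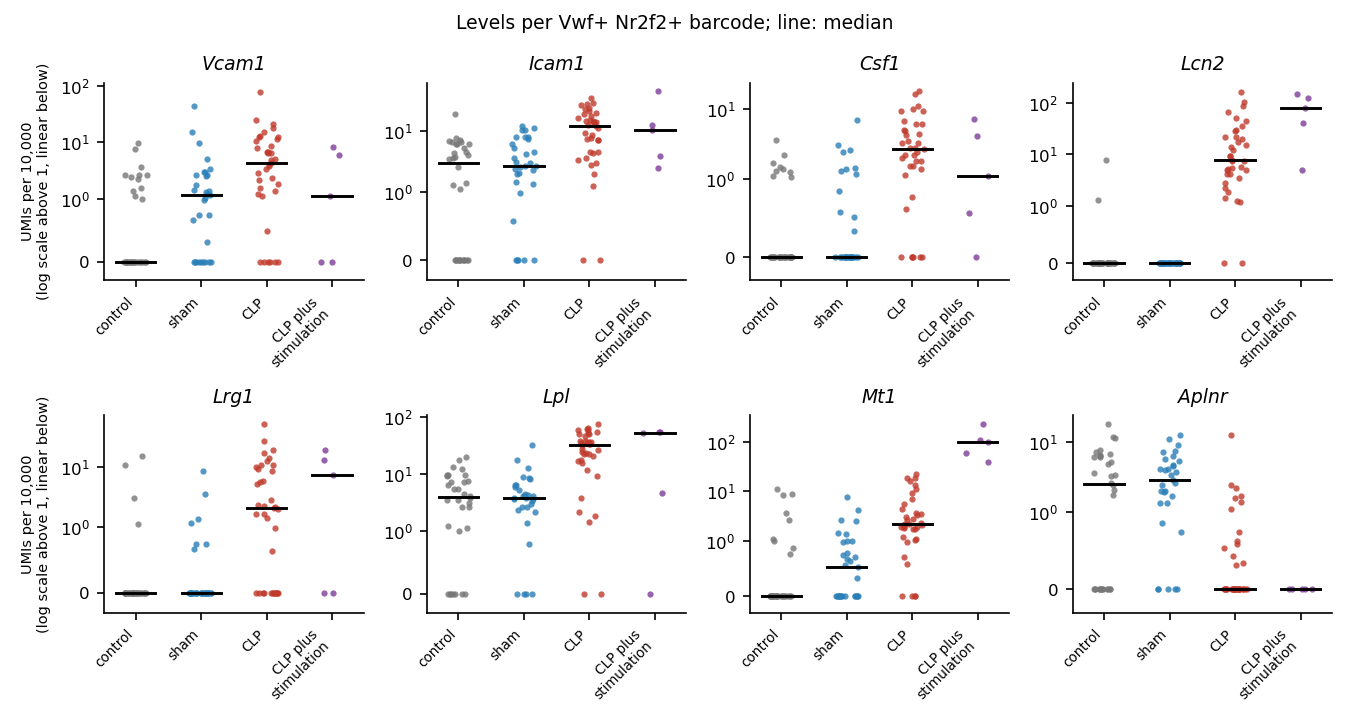
Level of 8 genes in each Vwf+ Nr2f2+ barcode (UMIs per 10000, log scale above 1 and linear below), with the median of each library as a line. Icam1 has a median of 2.68 in sham and 12 in CLP, Lpl 3.72 and 31.5, and Aplnr 2.88 and 0, with single barcodes of the libraries overlapping for each of these 3 genes.

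Of 34 interferon response genes, 22 were called higher and none lower, and all 34 had a log2 ratio above 0, with a median of 1.16. In capillary barcodes 13 of the 34 were called higher, with a median of 0.83; the difference between both was not tested. Zbp1, a sensor of Z-form nucleic acids, was at 7.17 CPM in sham and 90.4 in CLP (3.45, 2.0 to 6.0). Irf7, the transcription factor that amplifies type I interferon, was at 64.5 and 364 CPM (2.47, 1.90 to 3.14), and Ifit3, an antiviral RNA-binding adaptor, at 45.4 and 266 CPM (2.52, 1.84 to 3.34). Gbp2, a guanylate-binding protein, was at 74.0 and 409 CPM (2.45, 1.91 to 3.07). Gbp2 in lymphocytes was at 16.0 and 15.8 CPM.

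Of 15 genes of MHC class I presentation, 7 were called higher and none lower, with a median of 0.91. H2-Q7 led at 2.15 (1.58 to 2.79), followed by the peptide transporter Tap1 at 1.5 and the immunoproteasome subunit Psmb10 at 1.42. H2-Q7 has close relatives, and its count is uncertain where reads are shared. The 4 measured MHC class II genes were all called lower, with a median of -5.26. In sham a single barcode, taken for each gene on its own, held 95.3% of the H2-Aa UMIs, 75.4% of H2-Ab1, 90.8% of H2-Eb1 and 80.0% of Cd74. Without the top barcode of each library the median was -3.12, and the calls of H2-Aa and H2-Ab1 were lost. The macrophage markers C1qa, C1qb and C1qc, which the rule had capped, were also called lower, with a median of -2.09, and the part of macrophage RNA in the fall of the MHC class II genes was not tested. Of 19 NF-kappaB feedback genes, 9 were called higher and none lower, with a median of 0.90. Nfkbie at 2.03, Birc3 at 1.74, Relb at 1.66 and Nfkbia, the inhibitor that NF-kappaB itself induces, at 1.30 (1.13 to 1.47) were among them.

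Of 20 glucocorticoid response genes, 9 were called higher and 2 lower, with a median of 0.83. Fkbp5, a chaperone of the glucocorticoid receptor and one of its most induced targets, had 2 UMIs in sham and 63 in CLP (4.66, 3.06 to 8.05). Zbtb16 and Fam107a had none in sham, and against a floor of 3 counts CLP was 8.63-fold and 7.30-fold higher. Their exact intervals began at log2 ratios of 2.71 and 2.45. Ddit4 at 2.00, Cdkn1a at 1.69 and Tsc22d3 at 1.34 were called higher, and the receptor gene Nr3c1 lower at -1.14 (-1.79 to -0.54). Cdkn1c, a cell cycle inhibitor, was called lower at -1.29.

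Of 8 circadian clock genes, 1 was called higher and 5 lower, with a median of -1.4. Arntl, the activating arm, was at 9.56 CPM in sham and 42.8 in CLP (2.03, 0.56 to 4.19). The clock output Dbp at -2.53 (-4.17 to -1.37), the repressors Nr1d1 at -1.99 and Nr1d2 at -1.74, and Bhlhe40 at -1.49 were lower. Tef at -1.31 was also lower, a call lost without the top barcode. Time of day at sampling is not given and cannot be told apart from the groups.

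Of 16 lipid uptake genes, 6 were called higher and 2 lower, with a median of 0.27. Lpl, lipoprotein lipase, ranged from 0 to 19 UMIs with a median of 5 in sham and from 0 to 116 with a median of 34 in CLP. Its level was 557, 475, 3572 and 3706 CPM in the 4 libraries, so both CLP libraries stood far above the others. The log2 ratio of CLP over sham was 2.91 (2.70 to 3.13), beside 2.9 in capillary barcodes. Lymphocytes of CLP held 19.0 CPM of Lpl. Gpihbp1, which carries Lpl across the endothelium, was called higher at 1.13 (0.96 to 1.30), as were Angptl4 at 1.34, Cd300lg at 1.18, Plin2 at 1.15 and Lipe at 1.01. Among those called lower, Fabp5, a fatty acid binding protein, was at -1.47.

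Of 17 VEGF, angiopoietin and apelin genes, 1 was called higher (Angptl4) and 4 lower, with a median of -0.27. The main VEGF receptor Kdr was at 712 CPM in sham and 333 in CLP (-1.09, -1.4 to -0.80). The semaphorin receptor Plxnd1 was lower at -1.48 (-2.0 to -0.99), and Vegfc at -1.06 (-1.98 to -0.24), a call lost without the top barcode. Of 22 junction and barrier genes outside the rule, none was called higher and 5 lower, with a median of -0.20. The caveola genes Cavin2 at -1.23 (-1.41 to -1.05) and Cavin1 at -1.08, beta-catenin (Ctnnb1) at -1.06 and the guanine nucleotide exchange factor Arhgef15 at -1.62 were lower, beside Jam3. Of 18 genes of venous and arterial fate outside the rule, 2 were called lower, Aplnr and the endocytic adaptor Dab2 at -1.56, and none higher.

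Of 11 vascular tone genes, 2 were called higher and 1 lower. Ptgis, prostacyclin synthase, had 1, 2, 29 and 1 UMIs in the 4 libraries, or 5.36, 4.78, 69.0 and 23.6 CPM. Its log2 ratio in CLP over sham was 3.56 (1.87 to 6.96), against -0.18 in capillary barcodes, but without the Vwf requirement it turned to -0.74. Ace, the angiotensin converting enzyme, was called higher at 3.13 (1.94 to 4.94). Edn1, endothelin, was called lower at -2.45 from 24 UMIs to 4, but 16 of the 24 lay in 1 barcode and the call was lost without it (-1.29). Of 21 matrix genes, Mgp and Lama5 (1.42) were called higher and Ltbp4 (-1.35) lower, with a median of 0.19.

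Among lists with few calls, 19 immediate early genes had 1 called lower, Egr2 at -1.08 (0.31 without the Vwf requirement), and none higher, with a median of -0.43; in capillary barcodes the median was 0.31. Of 14 heat shock and ER stress genes, Hspa1b at 1.6 and Xbp1 at 1.27 were called higher. Of 18 BMP and TGF-beta genes only Ltbp1 was called, lower at -1.38, and of 5 cell cycle genes Ccnd1 at -1.30 and Stmn1 at -1.16 were lower.

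**Figure D4:**
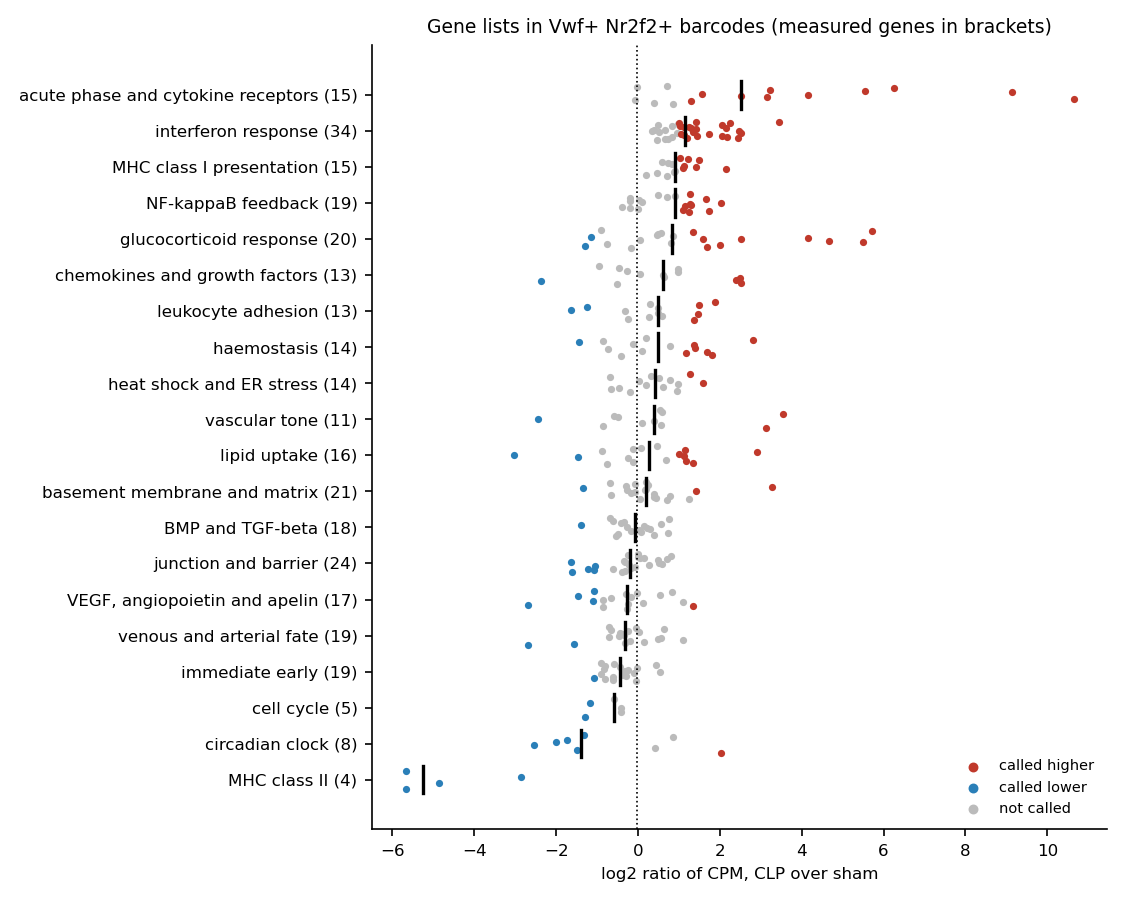
Log2 ratio of CPM in CLP over sham for every measured gene of 20 lists in Vwf+ Nr2f2+ barcodes, with called genes coloured and the list median as a black bar, genes that the rule used included; the dotted line is the median of all 5420 genes (-0.02). The acute phase median is 2.53 and the interferon median 1.16, while the circadian clock median is -1.4. Of the acute phase genes, 4 had no UMI in sham, and Saa3 and Lcn2 were higher in lymphocyte barcodes of CLP than in the selected ones.

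The genes named by size alone, among those with at least 50 CPM in the higher library, were headed by Lcn2, Zbtb16, Serpina3f, Fam107a, Fkbp5, Mt2, Mfap5, Spock2, Tpm2 and Myl9. Mfap5, a microfibril protein, was at 4.08 (2.44 to 7.48), Spock2, a secreted proteoglycan, at 3.59 (2.31 to 5.68), and the metallothionein Mt2 at 4.16 (3.17 to 5.59). Mfap5 was at 4.78 CPM in sham and 99.9 in CLP, beside 460 and 506 CPM in non-endothelial barcodes. Mt2 was at 16.7 and 319 CPM, beside 504 and 2271 CPM there, and Spock2 at 9.56 and 128 CPM, beside 4.88 and 16.9. The part of free RNA in these levels was not tested. The contractile genes Tpm2 and Myl9 had all their CLP UMIs in 1 barcode, and their calls were lost without it. Genes at the low end included Mfhas1 at -3.11, Aplnr, Dbp, Igf1 at -2.52 (-4.36 to -1.26), Jmy at -2.51, Edn1, M6pr at -2.39, Ccl7 and Art3 at -2.33. Igf1, the insulin-like growth factor, had 31 UMIs in sham and 5 in CLP, and its capillary ratio was -2.41.

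Markers of other cells moved as follows between sham and CLP. The 5 smooth muscle markers summed to 52.6 CPM in sham and 1622 in CLP, and the 6 neutrophil markers to 31.1 and 1206 CPM. Of the CLP counts, 1 barcode held 99.3% of Tagln and 1 barcode held 85.1% of S100a8. In sham 2 of the 5 smooth muscle and 4 of the 6 neutrophil markers were at 0. The 6 cardiomyocyte markers summed to 1039 and 488 CPM, and the 8 lymphocyte markers to 7.17 and 2.38 CPM. The 4 macrophage markers outside the rule summed to 59.7 and 4.76 CPM, with 2 of the 7 in all at 0 in CLP. The 8 pericyte markers summed to 69.3 and 235 CPM with 3 at 0 in each library; Rgs5, the 1 measured, was called higher at 1.84 (1.18 to 2.60). Capillary barcodes held 878 CPM of neutrophil markers in sham and 11951 in CLP, more than the selected barcodes. Without the barcodes high in smooth muscle or neutrophil genes, the log2 ratios in CLP over sham were 1.61 for Vcam1, 1.55 for Icam1, 2.46 for Csf1, 2.93 for Lpl and 2.49 for Irf7, and all 5 kept their calls.

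In sham over control, 100 of 4386 genes (2.28%) were called higher and 72 (1.64%) lower, with a median log2 ratio of 0.03. None of 10 measured adhesion genes outside the rule was called. Vcam1 stood at 112 and 193 CPM and Icam1 at 359 and 432 CPM in control and sham. Of 16 vein markers outside the rule, 3 were called lower and none higher. Among them were Mgp at -2.62 (-3.53 to -1.87) and Ctsh at -1.53, whose call was lost without the top barcode. Of 17 matrix genes, Mgp and Eln (-1.07, and 0.32 without the Vwf requirement) were called lower. Of 31 interferon genes, Gbp3 at 1.29 and Rtp4 at 1.16 were called higher.

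Cyp26b1, an enzyme that breaks down retinoic acid, was the lowest of the genes named by size, at 380 CPM in control and 52.6 in sham (-2.82, -3.62 to -2.15); its capillary ratio was -3.02. Rarg, a retinoic acid receptor, was at -2.06 (-3.71 to -0.76) and Smurf1 at -1.96. At the high end, Ehmt2 and Hist1h2ae had no UMI in control. Against a floor of 3 counts sham was 3.12-fold higher for each, and each exact interval began at a log2 ratio of 1.22. Of the Hist1h2ae UMIs, 85.7% lay in 1 barcode. Trappc5 at 3.07, Apol10b at 2.79 and the peptide transporter Tap2 at 2.62 (1.10 to 5.07) followed. Without the Vwf requirement, 8 of the 100 and 7 of the 72 calls remained.

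CLP plus stimulation held 5 of these barcodes, each with 1 Vwf UMI, so its levels rest on few cells. Of 3543 genes tested over CLP, 224 (6.32%) were called higher and 219 (6.18%) lower, with a median log2 ratio of -0.10. Without the top barcode of each gene, 53 were called higher and 463 lower. That setting kept the summed totals, and with 5 barcodes it moved the median log2 ratio of all genes to -1.08. Higher calls lost under it in this comparison cannot be told apart from that shift. One of the 5 held 109 smooth muscle UMIs per 10000, with 27 UMIs of Acta2 and 24 of Tagln, and also the most Mt1 (109) and Icam1 (21) UMIs of the 5. Another was among the highest doublet scores and held 1 Ptprc UMI. The pericyte markers summed to 235 CPM in CLP and 1204 in CLP plus stimulation, where Rgs5 was called higher at 2.49, and the macrophage markers outside the rule to 4.76 and 189 CPM. Without the barcodes high in smooth muscle or neutrophil genes, the log2 ratio was 4.02 for Mt1, -2.14 for Vcam1, -2.29 for Bst2 and -0.87 for Icam1, the last not called.

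Of 33 measured interferon response genes, 14 were called lower and none higher. Bst2, tetherin, was at 1142 CPM in CLP and 236 in CLP plus stimulation (-2.26, -3.34 to -1.38), Isg15 at 680 and 142 CPM (-2.25, -3.72 to -1.12), and Iigp1 at 908 and 260 CPM (-1.80, -2.82 to -0.95). In capillary barcodes 16 of the 33 were called lower. Of 15 MHC class I genes, 9 were called lower, among them Psmb8 at -2.08 (-3.42 to -1.03). Of 18 NF-kappaB feedback genes, 5 were called higher and none lower; the calls of Tnip1 at 2.14 and Irak3 at 3.07 held without the top barcode, and those of Nfkbia, Nfkb1 and Tnfaip2 did not.

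Of 10 adhesion genes outside the rule, 3 were called lower and none higher: Vcam1 at -1.75 (-2.90 to -0.82), Icam2 at -1.82 (-3.29 to -0.69) and Podxl at -2.13 (-5.25 to -0.29). Vcam1 was at 0, 0, 1, 4 and 4 UMIs in the 5 barcodes. Icam1 was not called. Of 15 acute phase genes and cytokine receptors, 5 were called higher and 2 lower. The metallothioneins Mt1 and Mt2, which bind zinc, were among the highest of all. Mt1 was at 150, 103, 597 and 9300 CPM in the 4 libraries, with 16 to 109 UMIs in each of the 5 barcodes (3.96, 3.73 to 4.20), and Mt2 was at 3.82 (3.50 to 4.16). Capillary barcodes had an Mt1 ratio of 3.94, and lymphocyte barcodes held 573 CPM of Mt1 in CLP and 1869 in CLP plus stimulation.

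Akap12, a scaffold of protein kinase A, at 4.29 (3.62 to 5.09), Plaur at 3.64 (2.92 to 4.47), and Hopx at 3.70, whose call was lost without the top barcode, were the other highest genes. Cxcl2, a neutrophil chemokine, at 2.46 (2.05 to 2.89), and the atypical chemokine receptor Ackr3 at 2.19 (1.41 to 2.98) were called higher, and Csf1 lower at -1.21. The lowest named genes had no UMI in the 5 barcodes. Against a floor of 3 counts, CLP plus stimulation was 5.11-fold lower for Nrp1, the VEGF and semaphorin coreceptor, and 4.60-fold for C1qtnf9. The fold was 4.06 for Cox7a2l, 4.00 for Lbp and 3.76 for Rbp7. The exact intervals of these 5 genes ended at log2 ratios of -2.04, -1.88, -1.70, -1.68 and -1.59. Of 16 VEGF, angiopoietin and apelin genes, 4 were called lower and none higher, Tek, Nrp2 and Ramp2 beside Nrp1. Of 14 lipid uptake genes, 5 were lower, among them Cd36 at -1.65 (-2.08 to -1.26). Of 21 junction genes outside the rule, 4 were lower, Cav1 at -2.46 (-3.60 to -1.53), Cavin2, Tjp1 and Cavin1. Cldn5, the claudin of endothelial tight junctions, was called higher at 1.47 (0.94 to 1.99), a call lost without the top barcode. With TMM or DESeq2 size factors the median of all genes moved to -0.54 or -0.52, so calls lower are the more frequent under those scalings.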

How the data were processed

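The data are droplet single-cell RNA libraries of mouse heart, 1 for each of 4 groups. The values deposited are unnormalized UMI counts for each gene in each barcode. Per the file headers, the authors ran Cell Ranger 5.0.0; STAR and mm10 are named in the submitters' processing notes. Each lists 32285 genes, and the 4 libraries hold 230435517 UMIs. Of 43074 barcodes, 209 had too few genes and 1507 too many mitochondrial UMIs. Doublets were scored with Scrublet in scanpy 1.11.5 (Python 3.11.15); the highest scores, 0.8% per 1000 barcodes, were left out only as an alternative.

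UMI counts were summed over the barcodes of a class in each library and scaled by their total. Log2 ratios used a prior count of 0.5, with exact conditional binomial intervals from scipy 1.17.1; levels carry exact Poisson intervals at 95%. Genes at 0 were set against 3 counts per library, and the folds given that way are not ends of the exact intervals. TMM factors (edgeR 4.0.16) and size factors (DESeq2 1.42.0) were used only as other scalings.

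The barcodes and the gene lists were chosen with earlier results of these data known. Lists held 486 genes, of which 4 had no row of their own. Genes named by size were the 10 highest and 10 lowest called genes with at least 50 CPM in CLP over sham, and 5 and 5 in the other comparisons, passing over mitochondrial, ribosomal, haemoglobin, immunoglobulin and sex-linked genes, gene models, other cells' markers and genes over 10 times as high in non-endothelial barcodes. Measured vein, adhesion and haemostasis genes were also named, and from other lists the extremes and, after their values were seen, further called genes. Some genes that these rules chose are not reported here. Comparisons were sham over control, CLP over sham and CLP plus stimulation over CLP; the last shares the CLP library with the one before, and CLP over sham shares sham with the first. Coordinates of 504 of 504 genes came from GENCODE vM21 and promoters from RefSeq GRCm38.p6, in which 3 of 4 genes sought had an entry.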

Additional observations from a re-analysis of the deposited data

Results flagged for a closer look

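For 10 genes the Vwf+ Nr2f2+ barcodes and the capillary barcodes of the same libraries were called in opposite directions. The difference between both classes was not tested for any of them.

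Of these, 6 were in CLP over sham. Endothelin, Edn1, had a log2 ratio of -2.45 in the Vwf+ Nr2f2+ barcodes (57.3 to 9.51 CPM) and 1.53 in capillary barcodes (6.51 to 19.0 CPM); 1 sham barcode held 66.7% of its UMIs. The contractile genes Acta2 at 5.42, Tagln at 6.34, Tpm2 at 6.35 and Myl9 at 4.57 were higher in CLP, and Myh11, with no UMI in sham, had a fitted value of 8.08 that depends on the prior count. In capillary barcodes these 5 lay between -1.78 and -1.35. In CLP 1 barcode held at least 99.3% of the UMIs of each of the 5.

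In sham over control, S100a8 at -6.36 and S100a9 at -5.52, the neutrophil calprotectin genes, were lower, while capillary ratios were 3.87 and 3.95; 1 control barcode held all 171 S100a8 UMIs. The haemoglobin gene Hba-a1 was at 1.0, with 99.4% of the sham UMIs in 1 barcode, and at -1.84 in capillary barcodes. In CLP plus stimulation over CLP, the cardiac myosin gene Myh6 was at 1.97 from 7 UMIs, and at -1.30 in capillary barcodes.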

How the results depend on the processing

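No paired analysis was possible because each group has 1 library. The share ratio of sham over control turned from 1.00 to -0.99 with barcodes thinned to 1000 UMIs and moved to 2.07 with at least 2 Vwf UMIs. The share ratio of CLP plus stimulation over CLP moved to -2.94 over all kept barcodes, and had no value when thinned or with at least 2 Vwf UMIs, where the stimulated library had no such barcode; the latter setting also gave no gene counts there.

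Counts of called genes that changed by over 1.5 times were as follows. Thinned to 1000 UMIs, sham over control gave 8 higher and 12 lower, CLP over sham 44 and 22, and CLP plus stimulation over CLP 18 and 18. With at least 2 Vwf UMIs the first 2 comparisons gave 37 and 46, and 209 and 111. Both settings test fewer genes. Without the Vwf requirement, lower calls came to 109 in sham over control and 461 in CLP over sham, and CLP plus stimulation over CLP gave 660 and 1038. Of the main calls in CLP over sham, 187 of 329 and 114 of 280 were shared with that setting. With no filter on counts, sham over control gave 162 lower, and CLP plus stimulation over CLP 417 higher. In CLP plus stimulation over CLP, TMM scaling gave 104 higher and 495 lower, DESeq2 size factors 107 and 473, and leaving out the top barcode of each gene 53 and 463. Leaving out the top barcode kept the totals and moved the median of all genes there to -1.08. For other changes the cause was not tested.

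Reversed medians of lists were those of smooth muscle markers (-1.32 in CLP over sham without the Vwf requirement, 0.48 in CLP plus stimulation over CLP with barcodes weighted equally) and cell cycle (0.71 in CLP plus stimulation over CLP without the Vwf requirement). Without the Vwf requirement, reversed genes were Ehmt2 (-0.0625) and Eln (0.32) in sham over control, Ccl7 (0.0714), Egr2 (0.31), Myl9 (-1.35), Ptgis (-0.74) and Tpm2 (-1.04) in CLP over sham, and Gdf15 (-0.43) in CLP plus stimulation over CLP. Without the top barcode they were Ccl7 (-0.66) in sham over control, Myl9 (-1.59), Thbs1 (-0.0051) and Tpm2 (0.0) in CLP over sham, and Gdf15 (-4.13) and Nr4a1 (-0.0565) in CLP plus stimulation over CLP. In that comparison Lrg1 turned to -0.55 when thinned, Nr4a1 to -0.0155 without the smooth muscle and neutrophil barcodes, and Gdf15 and Nr4a1 to -4.87 and -0.40 among barcodes with at least 5000 UMIs. Of the other list medians under an alternative, 820 stayed within the spread of their genes and 33 moved. Of the other values of single genes, 4416 kept their call, 287 lost it and 112 gained one. Leaving out barcodes by marker, by top count or under 5000 UMIs was chosen after seeing the data.

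With 1 library for each group, no value says how animals differ. The 5 stimulated barcodes held 42367 UMIs, so a gene under 70.8 CPM there can go unseen.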
